A study of Drosophila melanogaster with 2 samples.

Results

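The core genes of epithelial cell polarity were followed through embryos of 2 Drosophila melanogaster crosses, one of them labelled as a knockdown of Lim3. The set holds 8 of the 17301 genes in the data, picked by gene symbol and not by any measured value: crb and sdt of the Crumbs complex, baz, par-6 and aPKC of the Par complex, and dlg1, scrib and l(2)gl of the Scribble module. All 8 were found, with 84 annotated transcripts. Poly(A) RNA of whole embryos from 0 to 16 h of age, kept at 25 °C, was sequenced as 1 pooled library per cross, so differences could not be checked against replicates and have no p-value. Levels are in FPKM, the number of fragments per kilobase of a transcript in every 1000000 mapped fragments, given as 1 value per transcript and library.

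By its label, the library named Lim3 knockdown came from embryos in which the driver P{en2.4-GAL4}e22c was combined with P{TRiP.JF02125}attP2, a hairpin transgene for RNA interference against Lim3. For the control-cross library, the same driver was combined with P{y+t7.7=CaryP}attP2, an insertion at the same landing site with no hairpin. Both pools mixed embryos with y1 w* and with y1 w*/y1 v1 as their marker alleles, and both labels list 1 copy of P{tGPH}4, a fluorescent reporter. The parent that brought the driver had P{tGPH}4 over the balancer TM3, Ser1, so embryos with the balancer in place of the reporter may have been in both pools. The driver e22c is known for early activity in the ectoderm and not in every cell, so cells without driver activity were pooled with the others. In such whole-embryo pools, fewer cells of a type and less RNA per cell cannot be told apart.

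Epithelial cells have an apical face, which looks outward or into a lumen, and a basolateral face, which meets neighbours and the base. Crumbs and Par proteins hold the apical domain and the junctions at its rim, while Scribble, Discs large and Lethal giant larvae hold the basolateral side. Each side keeps the other out. On the apical side, atypical protein kinase C phosphorylates Lethal giant larvae and removes it from the apical cortex. In fly embryos these genes shape the cellular blastoderm, the epidermis and the dividing neuroblasts, which use the Par complex to sort fate determinants.

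Lim3, the targeted gene, was higher and not lower in the library whose label names its hairpin. It had 18.5 FPKM in the library labelled Lim3 knockdown, against 5.81 FPKM in the control-cross library, a log2 difference of 1.51 that goes against the label. What made this difference was not tested. An exchange of the labels and a hairpin without effect, in pools that differ for other reasons, cannot be told apart here. Other sources are possible as well. An exchange would turn every direction given below. The depth estimated from the smallest values was 35700000 fragments in the library labelled Lim3 knockdown and 21700000 in the control-cross library. Gene FPKM summed to 1122640 in the library labelled Lim3 knockdown and to 1363810 in the control-cross library, which matters for every direction below: rescaling both to an equal sum shifts plain log2 ratios by 0.28, and the differences below by less, down to 0, the lower the level, because 1 FPKM is added. Markers of embryonic stages and tissues were present in both libraries, while genes of follicle cells and adult tissue were all under 1 FPKM in both libraries (highest value 0.594 FPKM among 4 genes). Some embryonic lists differed between the pools. Of 8 early blastoderm genes 6 were higher in the library labelled Lim3 knockdown. They ranged from nullo, nearly level at a log2 difference of 0.05, to halo. Once 1 FPKM was added to each value, halo was the only one past 2-fold. bnk, with a plain ratio of 2.06, then fell just short at a log2 difference of 0.998. halo had 71.5 FPKM in the library labelled Lim3 knockdown and 30.8 FPKM in the control-cross library. eve and ftz were lower, at log2 differences of -0.13 and -0.23. All 3 midgut proteases were over 2-fold higher in the library labelled Lim3 knockdown.

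None of the 8 polarity genes differed 2-fold between the libraries. Differences are log2 ratios after 1 FPKM is added to each value, and genes that reached 1 FPKM in either library were compared. Of the 10576 such genes, 2.39% differed 2-fold in either direction, so 0 of 8 is close to that background. Those were 108 genes higher (1.02%) and 145 lower (1.37%) in the library labelled Lim3 knockdown, and 175 higher and 109 lower after rescaling to an equal sum. The polarity genes lay between -0.20 for par-6 and 0.21 for l(2)gl, inside a plain ratio of 0.864 to 1.16. Their median was 0.06, beside -0.04 for all genes compared, whose quartiles were -0.23 and 0.13.

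**Figure D1:**
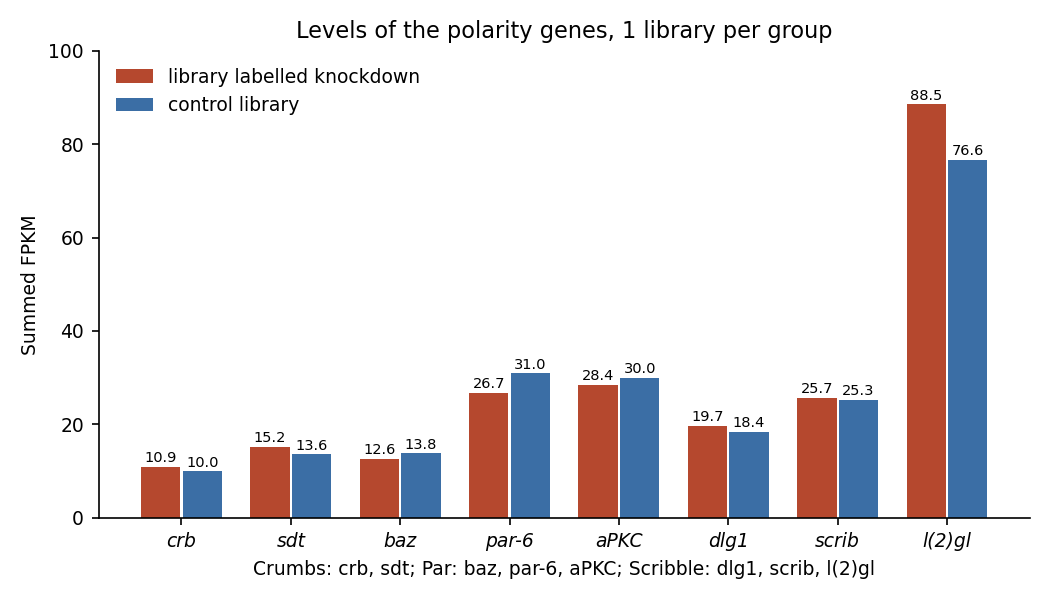
Summed FPKM of each polarity gene, with the library labelled Lim3 knockdown as the left bar and the control-cross library as the right bar, 1 library per group and therefore no error bars. The level of l(2)gl was 88.5 FPKM in the library labelled Lim3 knockdown and 76.6 FPKM in the control-cross library, while the other 7 genes lay between 9.98 and 31.0 FPKM in both libraries.

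The Crumbs complex had the lowest summed level of the 3 modules, and crb the lowest level of the 8 genes in both libraries. crb (FBgn0259685, chromosome 3R, 20120800 to 20140263 in Release 5 coordinates, plus strand) encodes the transmembrane protein that gives the complex its name and marks the apical membrane. It had 10.9 FPKM in the library labelled Lim3 knockdown and 9.98 FPKM in the control-cross library, a ratio of 1.10 with a counting interval of 1.03 to 1.16. This 95% interval, like those below, covers fragment counting only and not the spread between embryo collections. sdt (FBgn0261873, chromosome X, 8072582 to 8134507, plus strand) encodes Stardust, the scaffold that binds the tail of Crumbs. Its level was 15.2 FPKM in the library labelled Lim3 knockdown, against 13.6 FPKM in the control-cross library, a ratio of 1.12 (1.05 to 1.19). The level of sdt was 1.39 times that of crb in the library labelled Lim3 knockdown and 1.36 times in the control-cross library, so the proportion within the complex was nearly the same.

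The Par genes were all lower in the library labelled Lim3 knockdown on the deposited scale, by a small margin, and all 3 turned to above 0 once both libraries were rescaled to an equal sum. That rescaling raises genes at large, by up to 0.28. baz (FBgn0000163, chromosome X, 17054039 to 17094738, plus strand) encodes Bazooka, the Par-3 scaffold that places the adherens junctions. It had 12.6 FPKM in the library labelled Lim3 knockdown and 13.8 FPKM in the control-cross library, a ratio of 0.912 (0.874 to 0.952). par-6 (FBgn0026192, chromosome X, 17597385 to 17601129, plus strand) encodes the adaptor that ties the kinase to Cdc42 and to Crumbs. Its 26.7 FPKM in the library labelled Lim3 knockdown stood against 31.0 FPKM in the control-cross library, a ratio of 0.864 (0.815 to 0.916), the lowest of the 8. aPKC (FBgn0261854, chromosome 2R, 14944458 to 14962969 in Release 6 coordinates, minus strand) encodes the kinase itself. It had 28.4 FPKM in the library labelled Lim3 knockdown and 30.0 FPKM in the control-cross library, and the interval of its ratio of 0.947 included 1 (0.893 to 1.005). The level of par-6 was 0.942 times that of aPKC in the library labelled Lim3 knockdown and 1.03 times in the control-cross library, and both were over 2 times the deposited level of baz in each library. FPKM is per length, and the deposited baz models are longer than those of Release 6 (11772 nt against 6762 nt for baz-RA). How a shorter model would change the level of baz beside other genes was not tested.

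The Scribble module held the highest level of the set and, on the deposited scale, its smallest difference, which was that of aPKC after centring on the median and that of par-6 after rescaling to an equal sum. dlg1 (FBgn0001624, chromosome X, 11263698 to 11303809, plus strand) encodes Discs large, a scaffold of septate junctions and synapses. It had 19.7 FPKM in the library labelled Lim3 knockdown and 18.4 FPKM in the control-cross library, a ratio of 1.07 (1.01 to 1.13). scrib (FBgn0263289, chromosome 3R, 22362072 to 22429773, plus strand) encodes Scribble, a scaffold with leucine-rich repeats and PDZ domains. Its level was 25.7 FPKM in the library labelled Lim3 knockdown, against 25.3 FPKM in the control-cross library, and its ratio of 1.02 had an interval that included 1 (0.978 to 1.06). l(2)gl (FBgn0002121, chromosome 2L, 9839 to 21376, minus strand) encodes Lethal giant larvae, the substrate that aPKC drives off the apical cortex. It had 88.5 FPKM in the library labelled Lim3 knockdown and 76.6 FPKM in the control-cross library, a ratio of 1.16 (1.13 to 1.19). The l(2)gl level was 3.12 times that of its kinase gene aPKC in the library labelled Lim3 knockdown, against 2.55 times in the control-cross library, a proportion that rescaling a library does not change.

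Summed per module, the Crumbs genes had 26.1 FPKM in the library labelled Lim3 knockdown and 23.5 FPKM in the control-cross library. The Par genes had 67.8 FPKM in the library labelled Lim3 knockdown, against 74.8 FPKM in the control-cross library. The Scribble genes had 134 FPKM in the library labelled Lim3 knockdown and 120 FPKM in the control-cross library. On the deposited scale the 5 Crumbs and Scribble genes lay above 0 and the 3 Par genes below, where 43.5% of all genes compared lay above 0. This split moved with the scale: 8 of 8 lay above 0 after rescaling to an equal sum, 6 after centring on the median of 8167 well-measured genes (aPKC crossed to just above 0), and 4 after the trend with transcript length was removed (scrib crossed to -0.02). Rescaling to an equal sum raises genes at large, by up to 0.28, where the first quartile of all genes compared was -0.23 on the deposited scale. The 8 of 8 is therefore not read as particular to the polarity genes. On that scale 18 of 19 partner genes and 7 of 7 adherens junction genes, described below, also lay above 0. The share of all genes above 0 was not counted on the other scales. The order of the 8 levels in the library labelled Lim3 knockdown differed from the control-cross library only in neighbouring genes: aPKC stood just above par-6, and sdt just above baz, and both orders were the other way round in the control-cross library. The place of baz in both orders was taken from its long deposited model and was not tested with a shorter one. Linkage did not line up with direction, since of the 4 genes on the X chromosome sdt and dlg1 were above 0 and baz and par-6 below on the deposited scale.

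**Figure D2:**
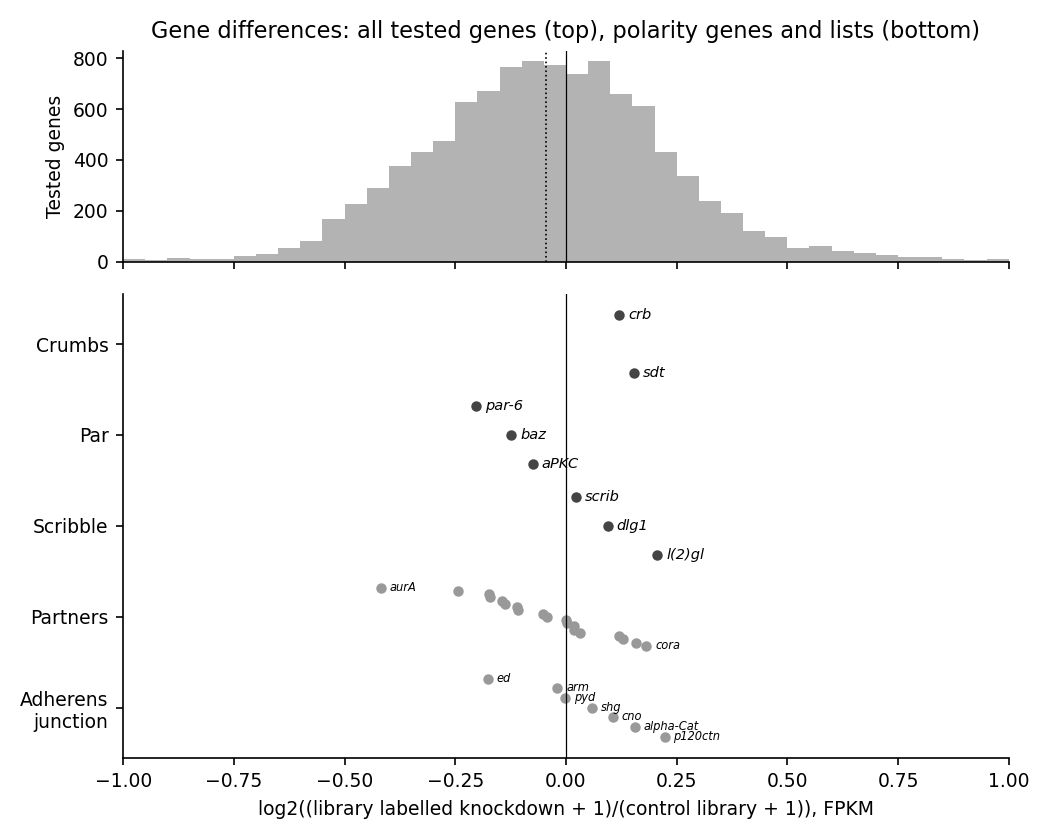
Log2 difference of all genes compared (histogram, with a dotted line at their median; the few genes beyond 1 in either direction are not drawn) and of the polarity genes, their partners and the adherens junction genes (points, 1 per gene, grouped down the page). The polarity genes lie between -0.20 and 0.21. The Par genes lie left of 0 on this scale but right of it after rescaling both libraries to an equal sum, which raises genes at large.

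Most markers of the epidermis, neuroblasts and early blastoderm stayed within 2-fold. With 1 FPKM added, 0 of 7 epidermis genes, 0 of 5 neuroblast genes and 1 of 8 early blastoderm genes passed that size. Over all genes compared, 2.39% passed it. The blastoderm gene bnk fell just short at 0.998, with a plain ratio of 2.06, while all 3 midgut proteases passed. In the epidermis and cuticle list, 7 of the 8 genes were matched and all 7 were higher in the library labelled Lim3 knockdown, with a median of 0.10 and a summed level of 1373 FPKM there, against 1113 FPKM in the control-cross library. The transcription factor grh, an epithelial regulator, differed little, with 10.6 FPKM in the library labelled Lim3 knockdown and 10.4 FPKM in the control-cross library. The neuroblast list had a median of -0.05 over 5 genes and a summed level of 81.8 FPKM in the library labelled Lim3 knockdown, against 89.4 FPKM in the control-cross library. Most of that sum was mira, at 55.8 FPKM in the library labelled Lim3 knockdown and 62.9 FPKM in the control-cross library. The genes dpn and ase lay above 0 and the other 3 below, and all 5 lay above 0 after rescaling to an equal sum. The 8 early blastoderm genes summed to 249 FPKM in the library labelled Lim3 knockdown and 165 FPKM in the control-cross library. No matched marker on the epidermis, neuroblast and early blastoderm lists was at 0. The part of these cell types and stages in the polarity values was not tested.

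Partner genes of the modules also differed little. Of 19 partner genes, 0 differed 2-fold, 8 lay above 0 and 11 below, and the median was -0.04, the same as that of all genes compared; after rescaling to an equal sum 18 lay above 0. Patj, a further PDZ protein of the Crumbs complex, had 28.5 FPKM in the library labelled Lim3 knockdown and 30.9 FPKM in the control-cross library. veli, which also binds Stardust, had 57.3 FPKM in the library labelled Lim3 knockdown, against 61.8 FPKM in the control-cross library. Cdc42, the GTPase that activates the Par complex, had 145 FPKM in the library labelled Lim3 knockdown and 161 FPKM in the control-cross library. These 3 genes were chosen for their roles, and each was slightly lower in the library labelled Lim3 knockdown on the deposited scale but above 0 after rescaling to an equal sum, with deposited ratios of 0.924, 0.927 and 0.904.

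The partner with the lowest log2 difference was aurA, the mitotic kinase that starts asymmetric division by acting on the Par complex. It had 29.2 FPKM in the library labelled Lim3 knockdown, against 39.4 FPKM in the control-cross library, a ratio of 0.742. Mer, the Merlin protein of the Hippo pathway, followed with 26.1 FPKM in the library labelled Lim3 knockdown and 31.1 FPKM in the control-cross library. Lkb1, a kinase upstream of the polarity kinase Par-1, had 16.6 FPKM in the library labelled Lim3 knockdown and 18.9 FPKM in the control-cross library. At the other end, cora, the Coracle protein of septate junctions, had 52.0 FPKM in the library labelled Lim3 knockdown and 45.7 FPKM in the control-cross library. ex, the Expanded protein that binds Crumbs, had 8.35 FPKM in the library labelled Lim3 knockdown, against 7.38 FPKM in the control-cross library. Moe, the Moesin protein that links membrane and actin, had 67.8 FPKM in the library labelled Lim3 knockdown and 61.9 FPKM in the control-cross library.

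Adherens junction genes, whose products the polarity proteins position, were close to the same range. Of 7 genes, 0 differed 2-fold, 4 lay above 0 and 3 below on the deposited scale, with a median of 0.06, and 7 lay above 0 after rescaling to an equal sum. p120ctn, which stabilises cadherin, had 101 FPKM in the library labelled Lim3 knockdown and 86.2 FPKM in the control-cross library, the highest log2 difference of the list at 0.22. alpha-Cat, the actin link, had 68.2 FPKM in the library labelled Lim3 knockdown and 61.1 FPKM in the control-cross library. cno, the Canoe scaffold, had 23.4 FPKM in the library labelled Lim3 knockdown and 21.6 FPKM in the control-cross library. The lowest was ed, the adhesion protein Echinoid, with 28.8 FPKM in the library labelled Lim3 knockdown, against 32.6 FPKM in the control-cross library. arm, the beta-catenin Armadillo, had 411 FPKM in the library labelled Lim3 knockdown and 416 FPKM in the control-cross library, and pyd had 59.2 FPKM in the library labelled Lim3 knockdown and 59.3 FPKM in the control-cross library.

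Below the level of whole genes, more differed. Of the 84 polarity transcripts, 36 reached 1 FPKM in at least 1 library, 21 were listed at 0 in both libraries, and the other 27 stayed under 1 FPKM. The 36 held 96.5% of the polarity FPKM in the library labelled Lim3 knockdown and 96.4% in the control-cross library. Among them 21 lay above 0 and 15 below, 2 were 2-fold higher and 3 were 2-fold lower in the library labelled Lim3 knockdown. The shares above 0 and at 0 in both libraries were not counted over all transcripts. The split of 21 and 15 is therefore not read as a trait of the polarity transcripts. Over all 18041 transcripts compared, 7.31% differed 2-fold, with 3.36% higher and 3.95% lower.

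**Figure D3:**
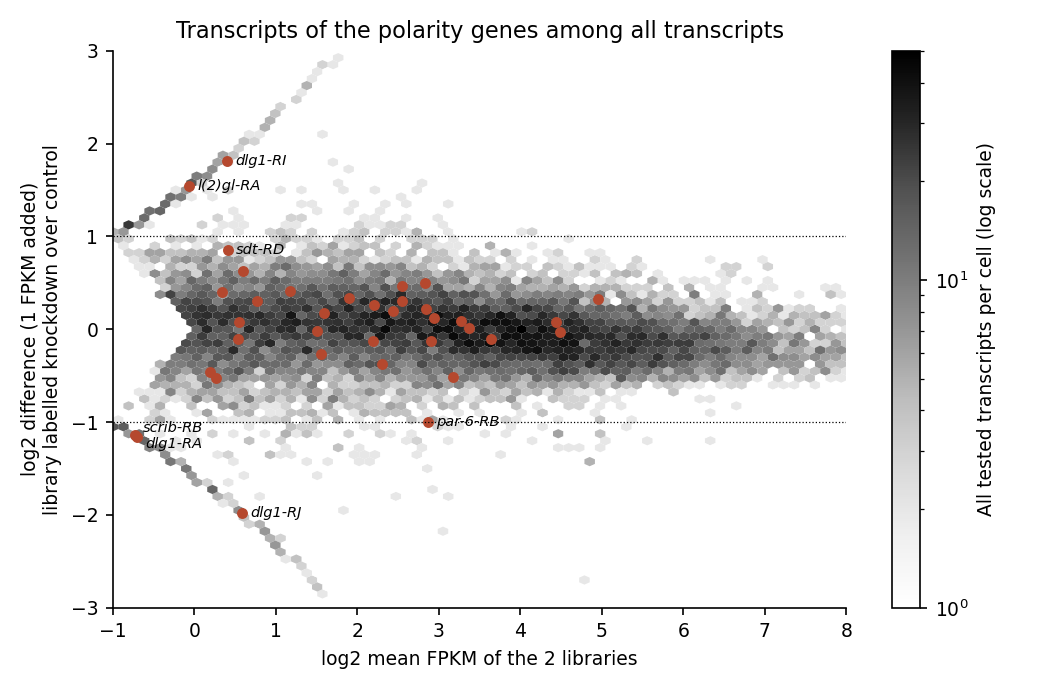
Log2 difference of each transcript against the log2 of its mean FPKM over the 2 libraries, with all transcripts compared in grey (darker cells hold more, log scale) and polarity transcripts at 1 FPKM or more in red; dotted lines mark 2-fold, and values beyond the axes are not drawn. The 5 polarity transcripts past the lines lie at low mean levels, on the 2 arms formed by transcripts at or near 0 in 1 library.

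All 5 of those transcripts were at or near 0 in 1 of the libraries. dlg1-RI had 2.61 FPKM in the library labelled Lim3 knockdown and 0.0284 FPKM in the control-cross library, while dlg1-RJ had 0.0126 FPKM in the library labelled Lim3 knockdown and 2.98 FPKM in the control-cross library. In the Release 6 annotation this pair shares start site, end and a protein of 208 residues, and differs in length by 12 nt outside the coding sequence. Together with dlg1-RC, listed at 0, they had 2.63 FPKM in the library labelled Lim3 knockdown and 3.01 FPKM in the control-cross library, a ratio of 0.874. So the 2-fold differences of the pair were opposite in sign and nearly cancelled in the sum.

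For the other 3, no transcript of the same protein was 2-fold different in the opposite direction. scrib-RB had 0.00305 FPKM in the library labelled Lim3 knockdown and 1.20 FPKM in the control-cross library, but its protein of 1756 residues is also that of scrib-RA, from which it differs by 100 nt in length. The pair summed to 7.14 FPKM in the library labelled Lim3 knockdown and 9.07 FPKM in the control-cross library. l(2)gl-RA had 1.91 FPKM in the library labelled Lim3 knockdown and was listed at 0 in the control-cross library, and its 1161-residue protein is shared with 5 other transcripts. That protein summed to 42.7 FPKM in the library labelled Lim3 knockdown and 40.6 FPKM in the control-cross library. dlg1-RA, with a protein of its own, was listed at 0 in the library labelled Lim3 knockdown and had 1.23 FPKM in the control-cross library. Of the 36 polarity transcripts, 2 reached 1 FPKM in 1 library and were listed at 0 in the other, where 1.56% of all transcripts compared did so. A listed 0 can be a failed estimate of how fragments were shared out among overlapping transcripts.

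Shares of a gene's FPKM do not depend on how the libraries are scaled, so the make-up of each gene was compared in this way. By the rule used here a gene changed its make-up when any transcript's share differed by 20 percentage points or more, which 0 of the 8 polarity genes did, beside 10.8% of 5669 genes with at least 2 transcripts. The largest share change was 16.1 points in dlg1, 15.5 in par-6, 14.7 in sdt, 10.5 in aPKC, 8.81 in crb, 8.25 in scrib, 4.55 in l(2)gl and 1.65 in baz. The median over the 5669 genes was 5.34 points, so only l(2)gl and baz were below it. The changes of dlg1, par-6 and sdt were larger than those of 84.4%, 83.1% and 81.6% of these genes. From shares of fragments in place of FPKM, the value of dlg1 was 7.29 points. With transcripts of identical coding sequence summed, the value was 6.67 points for dlg1 and 4.88 for aPKC, par-6 has a single coding sequence and gives no value, and 8.45% of 3042 genes then passed the rule.

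**Figure D4:**
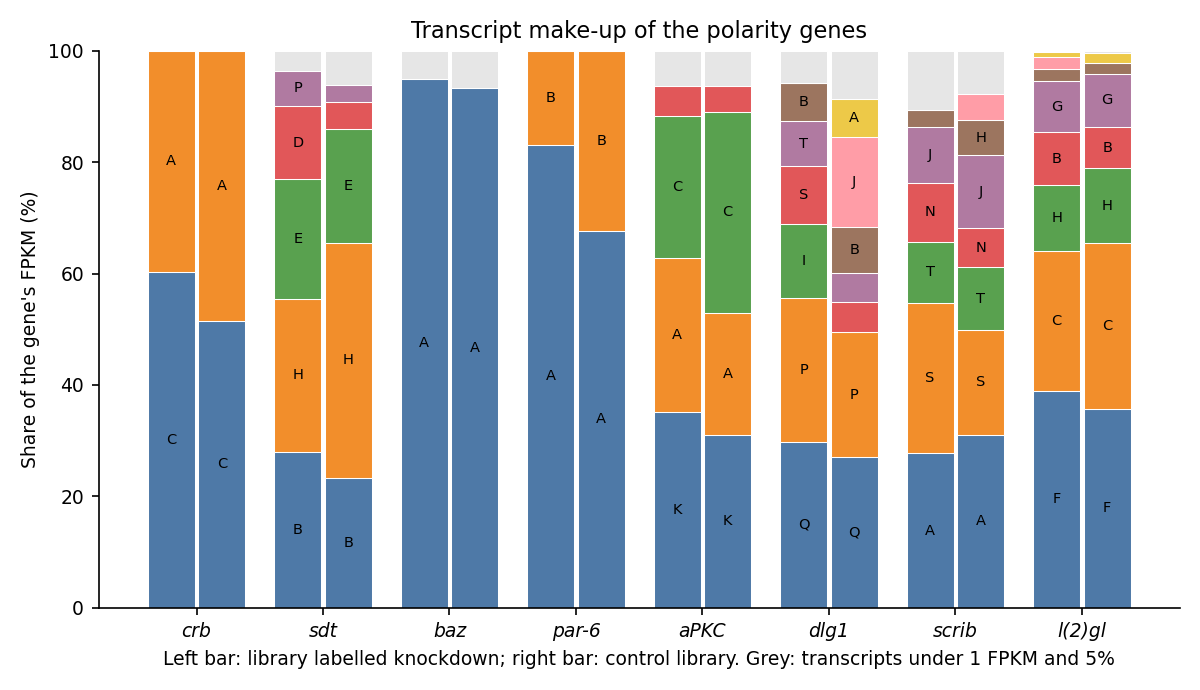
Share of each transcript in its gene's FPKM, in percent, with the library labelled Lim3 knockdown as the left bar and the control-cross library as the right bar of each gene. Letters name the transcripts; the exchange of I for J in dlg1, the smaller B segment of par-6 and the smaller H segment of sdt in the library labelled Lim3 knockdown are the widest shifts, at up to 16.1 points.

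In crb, 2 transcripts carried all fragments and both begin at the same site. crb-RC, which holds an extra coding exon of 321 nt (3R, 24307354 to 24307674 in Release 6), had 6.59 FPKM in the library labelled Lim3 knockdown and 5.14 FPKM in the control-cross library. crb-RA, without that exon, had 4.33 FPKM in the library labelled Lim3 knockdown and 4.84 FPKM in the control-cross library. The exon adds 107 codons, giving proteins of 2253 and 2146 residues. The longer form made up 60.3% of crb in the library labelled Lim3 knockdown and 51.5% in the control-cross library. crb-RC also ends 109 nt further downstream than crb-RA, so use of the exon and use of the end cannot be told apart.

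In sdt, transcripts differ by 7 start sites and by a coding exon of 1299 nt (X, 8224785 to 8226083 in Release 6), known for binding the ubiquitin ligase Neuralized. Among transcripts that span it, those with this 433-codon exon held 59.6% of FPKM in the library labelled Lim3 knockdown and 49.4% in the control-cross library. sdt-RB, with the exon, had 4.25 FPKM in the library labelled Lim3 knockdown and 3.17 FPKM in the control-cross library, and sdt-RE, also with it, had 3.25 FPKM in the library labelled Lim3 knockdown and 2.78 FPKM in the control-cross library. sdt-RH, the main form without the exon, was 4.18 FPKM in the library labelled Lim3 knockdown, against 5.72 FPKM in the control-cross library. sdt-RB and sdt-RE end 1047 nt downstream of sdt-RH, so the exon and the end are again coupled in the transcripts that carried most fragments. The most downstream start site, which gives a protein of 879 residues, held 13.2% of sdt in the library labelled Lim3 knockdown and 6.17% in the control-cross library. Its main transcript sdt-RD had 2.003 FPKM in the library labelled Lim3 knockdown and 0.660 FPKM in the control-cross library, a log2 difference of 0.86 with 1 FPKM added. sdt-RP, from the most upstream site and without the exon, had 0.955 FPKM in the library labelled Lim3 knockdown, against 0.408 FPKM in the control-cross library.

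baz was the gene whose make-up differed least. baz-RA had 12.0 FPKM in the library labelled Lim3 knockdown (95.0% of the gene) and 12.9 FPKM in the control-cross library (93.3%). The other 3 baz transcripts stayed under 1 FPKM in both libraries. The baz models behind the deposited values are longer than those of Release 6 (11772 nt against 6762 nt for baz-RA), so baz was left out of the comparison of 3′ ends.

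In par-6, both transcripts share the start site and the whole protein of 351 residues, and differ only in where they end. par-6-RA, whose end lies 468 nt further downstream, had 22.2 FPKM in the library labelled Lim3 knockdown and 20.9 FPKM in the control-cross library. par-6-RB, with the nearer end, had 4.51 FPKM in the library labelled Lim3 knockdown, against 10.01 FPKM in the control-cross library, a ratio of 0.451 whose log2 difference of -0.998 fell just short of 2-fold once 1 FPKM was added; it passed with 0.1 FPKM added or with the length trend removed. The lower level of par-6 as a whole in the library labelled Lim3 knockdown on the deposited scale was therefore all in the short transcript, and the distal end made up 83.1% of the gene there, against 67.7% in the control-cross library.

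In aPKC, a shift of the same kind was seen. aPKC-RA and aPKC-RC start at the same site and encode the same 606 residues, and the genomic ends lie 1648 nt apart. aPKC-RA, with the distal end, had 7.81 FPKM in the library labelled Lim3 knockdown and 6.55 FPKM in the control-cross library. aPKC-RC, with the proximal end, had 7.26 FPKM in the library labelled Lim3 knockdown, against 10.8 FPKM in the control-cross library. The proximal end thus made up 48.2% of this pair in the library labelled Lim3 knockdown and 62.3% in the control-cross library. aPKC-RK, which starts further downstream and encodes 519 residues, had 10.003 FPKM in the library labelled Lim3 knockdown (35.2% of the gene) and 9.32 FPKM in the control-cross library (31.1%). aPKC-RD, with an alternative coding exon, held 5.37% of the gene in the library labelled Lim3 knockdown and 4.64% in the control-cross library.

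In dlg1, the start codon of the DlgA type, known as the epithelial form, was used by 9 of 20 transcripts. Those 9 held 74.0% of dlg1 in the library labelled Lim3 knockdown (14.6 FPKM) and 66.5% in the control-cross library (12.2 FPKM). dlg1-RQ, the most abundant, had 5.86 FPKM in the library labelled Lim3 knockdown and 4.98 FPKM in the control-cross library. dlg1-RP had 5.11 FPKM in the library labelled Lim3 knockdown and 4.11 FPKM in the control-cross library. dlg1-RS had 2.05 FPKM in the library labelled Lim3 knockdown, against 0.970 FPKM in the control-cross library, and dlg1-RT had 1.57 FPKM in the library labelled Lim3 knockdown, against 0.948 FPKM in the control-cross library. dlg1-RB, which starts far upstream and encodes 970 residues, had 1.36 FPKM in the library labelled Lim3 knockdown and 1.54 FPKM in the control-cross library. The 5 short transcripts that end before the DlgA start codon held 16.5% in the library labelled Lim3 knockdown and 21.3% in the control-cross library. Alternative coding exons of dlg1 differed little: an 8-codon exon was present in 41.8% of the FPKM spanning it in the library labelled Lim3 knockdown and 46.2% in the control-cross library, and the change was 1.08 points for a 25-codon exon and -0.24 points for a 15-codon exon.

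In scrib, shares moved among forms with different ends of the protein. scrib-RS starts inside the gene and encodes 1859 residues, without 729 codons of scrib-RA, among them those that precede its own start. It had 6.94 FPKM in the library labelled Lim3 knockdown (27.0% of the gene) and 4.74 FPKM in the control-cross library (18.7%). scrib-RA, the most abundant form in both libraries, had 7.14 FPKM in the library labelled Lim3 knockdown, against 7.87 FPKM in the control-cross library. The 5 transcripts that share the C terminus of scrib-RA held 30.9% in the library labelled Lim3 knockdown and 42.2% in the control-cross library. Those with the C terminus of scrib-RS and scrib-RJ, coded 3′ of it, held 40.1% in the library labelled Lim3 knockdown and 34.1% in the control-cross library. Of the other named forms, scrib-RN had 2.72 FPKM in the library labelled Lim3 knockdown and 1.79 FPKM in the control-cross library. scrib-RT was nearly level, at 2.83 FPKM in the library labelled Lim3 knockdown and 2.87 FPKM in the control-cross library. scrib-RJ had 2.58 FPKM in the library labelled Lim3 knockdown, against 3.30 FPKM in the control-cross library, and scrib-RH had 0.800 FPKM in the library labelled Lim3 knockdown, against 1.60 FPKM in the control-cross library.

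In l(2)gl, no share differed by more than 4.55 points. l(2)gl-RF, which encodes 1112 residues, had 34.5 FPKM in the library labelled Lim3 knockdown and 27.4 FPKM in the control-cross library. l(2)gl-RC, from the downstream start site and with 1161 residues, had 22.2 FPKM in the library labelled Lim3 knockdown and 22.7 FPKM in the control-cross library. l(2)gl-RH, with the same protein from the upstream site, had 10.4 FPKM in the library labelled Lim3 knockdown and 10.3 FPKM in the control-cross library. l(2)gl-RB, with 1153 residues, had 8.49 FPKM in the library labelled Lim3 knockdown, against 5.72 FPKM in the control-cross library. Of the smaller forms, l(2)gl-RG had 8.03 FPKM in the library labelled Lim3 knockdown and 7.31 FPKM in the control-cross library, and l(2)gl-RK had 1.99 FPKM in the library labelled Lim3 knockdown and 1.42 FPKM in the control-cross library. l(2)gl-RE was lower, at 0.806 FPKM in the library labelled Lim3 knockdown, against 1.48 FPKM in the control-cross library. The higher l(2)gl level of the library labelled Lim3 knockdown on the deposited scale thus lay mostly in the upstream start site, at 64.4 FPKM there and 53.9 FPKM in the control-cross library, while the downstream site had 24.1 FPKM in the library labelled Lim3 knockdown and 22.7 FPKM in the control-cross library. All 11 transcripts of l(2)gl share 1 annotated 3′ end.

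**Figure D5:**
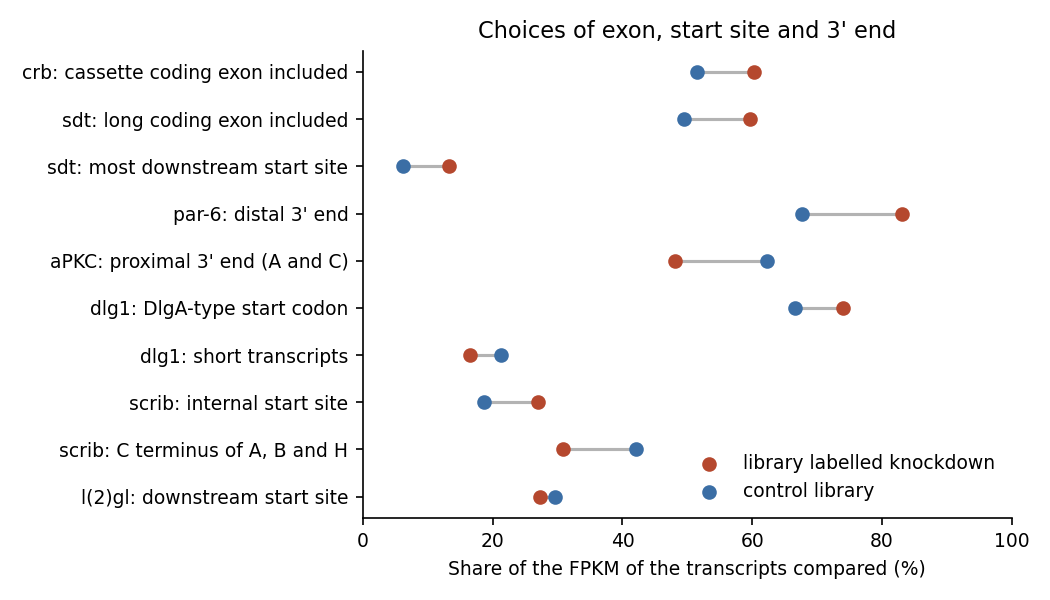
Share of the named exon, start site, start codon or 3′ end within the transcripts compared for it, in percent, as red points for the library labelled Lim3 knockdown and blue points for the control-cross library, joined by a line. The widest gaps are the distal 3′ end of par-6 (83.1% in the library labelled Lim3 knockdown, 67.7% in the control-cross library) and the proximal 3′ end of the aPKC pair (48.2% in the library labelled Lim3 knockdown, 62.3% in the control-cross library); the start sites of l(2)gl are nearly level.

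Higher shares of distal 3′ ends in the library labelled Lim3 knockdown were common among genes at large. This measure was taken up after the par-6 and aPKC values had been seen. In 6 of the 6 polarity genes with at least 2 annotated ends and models like those of Release 6, the most distal end had a higher share in the library labelled Lim3 knockdown, but so it had in 75.0% of 2438 such genes. Over those genes the median change was 2.78 points, beside 6.93 points for the 6 polarity genes. Besides par-6 and crb, whose most distal ends are those given above, the most distal end of sdt held 57.8% in the library labelled Lim3 knockdown and 49.6% in the control-cross library. That of scrib held 42.2% in the library labelled Lim3 knockdown and 36.9% in the control-cross library, and that of aPKC held 27.5% in the library labelled Lim3 knockdown and 21.8% in the control-cross library. That of dlg1 held 10.6% in the library labelled Lim3 knockdown and 8.91% in the control-cross library.

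A stricter comparison used sets of transcripts alike in start site and coding sequence, with ends at least 100 nt apart. The distal share was 10 points or more higher in the library labelled Lim3 knockdown in 25.0% of 1474 such sets and as much lower in 3.66%. par-6 and aPKC, at 15.5 and 14.1 points, were among those higher by that much, while the set of dlg1 changed by 0 points and that of sdt by -0.12 points. These last sets had no room for such a rise. The distal share of dlg1 was 100% in both libraries. That of sdt was 98.5% in the library labelled Lim3 knockdown and 98.7% in the control-cross library. Gene differences likewise moved with transcript length: the median was -0.14 for genes with a longest transcript under 1000 nt, -0.07 for 1000 to 3000 nt and 0.04 above that. Of the polarity genes, par-6 is the shortest at 3032 nt and had the lowest difference; with the length trend removed its value was -0.21, and that of l(2)gl was 0.16.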

How the data were processed

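Poly(A) RNA from 1 embryo pool per cross was made into directional libraries, from which molecules of 250 to 400 bp were cut, per the labels' protocols. The authors deposited FPKM per transcript, made with TopHat and Cuffdiff per the submitters' processing notes. Settings, genome build, annotation and use of strand are not given in the sources used for this work, so overlapping and antisense genes may share fragments. Coordinates in the files are those of Release 5, while transcript structures came from the Release 6 annotation (Ensembl). All 84 polarity transcripts were found there, 80 with equal length. The span the files list for aPKC is longer than the gene and was replaced by that of Release 6.

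Of the 33887 transcripts with deposited FPKM, those with a gene identifier were summed to 17301 genes. The 365 among them without a gene identifier were left out (0.0227% of FPKM in the library labelled Lim3 knockdown, 0.0246% in the control-cross library). Differences are log2((knockdown + 1)/(control + 1)), which understates those of low genes. With 1 library per group no test was run. The value of 1 fragment was estimated from low values of genes with 1 transcript of 1000 to 3000 nt. It gave depths and exact binomial (Clopper-Pearson) 95% intervals of each ratio, which cover counting error only and were not taken for single transcripts. The value, in FPKM times length, was 28.05 in the library labelled Lim3 knockdown and 46.15 in the control-cross library. With 200 nt taken off each length it was 26.8 and 39.75 in the same order, so the depths are approximate. The length trend was a lowess curve with a fraction of 0.3. Named were the 8 polarity genes, their transcripts at 1 FPKM or 5% of the gene, and the 3 highest and 3 lowest genes of the partner and junction lists. The lists were chosen with earlier results of these data known. The 3′-end measures and the choice of exons and start sites described were made after the values had been seen. Scripts were tested on simulated data and used Python 3.11.15, numpy 2.4.6, pandas 2.3.3, scipy 1.17.1, statsmodels 0.14.6 and matplotlib 3.10.9.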

Additional observations from a re-analysis of the deposited data

How the results depend on the processing

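Scaling moved the polarity genes most. Rescaled to an equal sum, the log2 differences were 0.38 for crb, 0.42 for sdt, 0.14 for baz, 0.068 for par-6, 0.20 for aPKC, 0.36 for dlg1, 0.29 for scrib and 0.48 for l(2)gl. The medians then were 0.33 for the polarity genes, 0.23 for the partners and 0.33 for the adherens junction genes, on a scale that raises genes at large by up to 0.28. Centred on the median of the 8167 genes that reached 5 FPKM in each library, baz was -0.044, scrib 0.10 and l(2)gl 0.29, and the adherens junction median was 0.14. Without the length trend l(2)gl was 0.16. No polarity gene passed 2-fold or the share rule under any alternative run, namely pseudocounts of 0.1 and 5, a filter at 5 FPKM or none, the scalings, the length trend and the groupings of transcripts. Over all genes, 108 were 2-fold higher and 145 lower in the library labelled Lim3 knockdown on the deposited scale; the higher count was 175 after rescaling to an equal sum, against 109 lower. It was 177 with a pseudocount of 0.1, and with a pseudocount of 5 it was 52, with 90 lower. Polarity transcripts 2-fold higher numbered 4 with a pseudocount of 0.1 (sdt-RD and dlg1-RS joined), and 0 with a pseudocount of 5 or a filter at 5 FPKM. After rescaling to an equal sum they numbered 3, with sdt-RD. Those 2-fold lower numbered 4 with a pseudocount of 0.1 or the length trend removed, since par-6-RB joined at -1.13 and -1.003, and 0 with a pseudocount of 5 or a filter at 5 FPKM. Genes past the share rule numbered 338 at 5 FPKM in both libraries, 229 with start sites summed and 257 with identical coding sequences summed, the last chosen after seeing the data, against 614 by the rule as reported, 618 with transcripts under 5% left out and 586 from shares of fragments. Depth, estimated from low values, limits single transcripts more than genes, and with 1 library per group no library could be left out. No paired analysis was possible because each group has 1 library and the labels give no replicate numbers.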

Other observations

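Among the junction genes, ed had a share change past the 20-point rule, the only one of 5 adherens junction genes with at least 2 transcripts to do so; over all such genes 10.8% did. ed-RB held 95.3% of the gene in the library labelled Lim3 knockdown and 73.4% in the control-cross library. ed-RA was listed at 0 in the library labelled Lim3 knockdown and had 6.98 FPKM in the control-cross library. Both encode the same number of residues, 1332. Of 16 partner genes with at least 2 transcripts, 0 passed that rule.

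Other cell-type lists gave these values. The 6 neuron genes had a median log2 difference of 0.30, with cpx at 11.8 FPKM in the library labelled Lim3 knockdown and 7.05 FPKM in the control-cross library, and elav at 15.2 FPKM in the library labelled Lim3 knockdown and 16.3 FPKM in the control-cross library. The 5 muscle genes were all higher in the library labelled Lim3 knockdown, with a median of 0.18. The 3 midgut proteases summed to 51.7 FPKM in the library labelled Lim3 knockdown and 19.6 FPKM in the control-cross library. Of 4 hemocyte genes, Hml was under 1 FPKM in both libraries, and the median of the other 3 was 0.35. The 6 maternal and germ plasm genes had a median of -0.06, with 3 above 0 and 3 below. The lowest was bcd, at 24.5 FPKM in the library labelled Lim3 knockdown and 36.2 FPKM in the control-cross library. The highest was osk, at 34.8 FPKM in the library labelled Lim3 knockdown and 27.0 FPKM in the control-cross library. Genes named here as examples were chosen after their values were seen.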
